A study of Mus musculus with 6 samples.

Results

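The microRNAs miR-192, miR-194 and miR-215 were read in small RNA libraries from mouse liver, where the mature arms of 4 hairpin genes gave 7 rows of the 1039 in the table. The rows were those with a mouse name that began with miR-192, miR-194 or miR-215, on either arm. No measured value entered this rule, though the members were chosen with earlier results of these data known. The 7 rows were mmu-miR-192-5p, mmu-miR-192-3p, mmu-miR-194-5p, mmu-miR-194-1-3p, mmu-miR-194-2-3p, mmu-miR-215-5p and mmu-miR-215-3p. All 6 mice were wild type ICR, an outbred stock, were 30 weeks old by the labels, and were kept on a high-fat diet (HFD), begun in adult mice, until the end of the experiment. After 12 weeks of the diet, 3 mice received Jiang Tang Xiao Ke (JTXK) granule, a Chinese herbal formula, by gavage for 8 weeks (J group). Another 3 received sterile water for the same time (M group). The study selected these mice for sequencing from 6 per group and does not state how. Each mouse gave 1 library of whole liver, and no library of a chow-fed mouse was analysed here, so the comparison is of JTXK granule against water on the same diet. Values are RPM, the reads of a miRNA scaled to a common total of 1000000 miRNA reads in each library, from 2626353 to 4314134 miRNA reads per library, and 3 reads correspond to 0.695 to 1.14 RPM. M group replicate 1 stood apart, with a mean correlation of 0.937 with the other libraries, against 0.969 to 0.974 for the rest. Its 5 immune cell miRNAs summed to 4228 RPM, against 595 to 1080 RPM elsewhere. The arms of miR-142a carried this sum, with 3709 RPM of mmu-miR-142a-5p and 443.6 RPM of mmu-miR-142a-3p, while mmu-miR-223-3p (25.1 RPM) and mmu-miR-155-5p (3.43 RPM) were within the range of the other libraries and mmu-miR-150-5p (47.2 RPM) was above it. Its label has a code (MX1) that no other library has and that is not explained. Results that it moved are given without it as well.

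A microRNA gene is transcribed as a longer RNA with a hairpin, and the hairpin is cut to a short duplex. One strand of the duplex, from the 5′ side (5p) or the 3′ side (3p) of the hairpin, is loaded into the silencing complex and the other is mostly degraded. Targets are found mainly through the seed, bases 2 to 8 of the mature strand. The miR-192 and miR-194 genes are active in the epithelium of liver, gut and kidney, and miR-192-5p is among the abundant miRNAs of hepatocytes. miR-192, miR-194 and miR-215 are also known as responders to the tumour suppressor p53. No transcription factor was measured in the libraries, and these links are background here.

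The mature sequences are shown because the 4 hairpins share sequence, and this decides which rows can be told apart by reads. Mir194-1 and Mir215 lie 195 bases apart on chromosome 1 and Mir194-2 and Mir192 lie 115 bases apart on chromosome 19, all on the plus strand. Sequences are from RefSeq (GRCm38.p6), 5′ to 3′, with the seed in capitals. All 7 names matched an entry. The first 3 lines are of chromosome 19, the fourth is common to both loci, and the last 3 are of chromosome 1.
mmu-miR-192-5p: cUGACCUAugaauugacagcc
mmu-miR-192-3p: cUGCCAAUuccauaggucacag
mmu-miR-194-2-3p: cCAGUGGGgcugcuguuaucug
mmu-miR-194-5p: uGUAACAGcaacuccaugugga
mmu-miR-194-1-3p: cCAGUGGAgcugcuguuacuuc
mmu-miR-215-5p: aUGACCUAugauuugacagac
mmu-miR-215-3p: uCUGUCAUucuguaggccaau

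Both miR-194 hairpins give the same miR-194-5p, so its reads cannot be divided between chromosome 1 and chromosome 19. Each of the other 6 arms has a sequence of its own. miR-192-5p and miR-215-5p share their seed and 18 of 21 bases. Counted from the 5′ end, with the base of miR-192-5p first, they differ by C1A, A12U and C20A. No other name among the 1679 mature mouse miRNAs searched had that seed, and none shared the seed of miR-194-5p. The 3p arms of the miR-194 hairpins share 18 of 22 bases and differ by A8G, C19U, U20C and C22G, with the base of miR-194-1-3p first. The first of these falls in the seed, so the seeds of these arms are different. The mismatch rule of the authors' matching is not given in the sources used here, and reads with a mismatch between the close pairs could have been put to either name.

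In GRCm38.p6 coordinates, Mir194-1 is chr1:185313319-185313385 and Mir215 is chr1:185313581-185313692. Both lie inside Iars2, the gene of mitochondrial isoleucyl-tRNA synthetase, on the opposite strand to it and in an intron. On their own strand the GENCODE annotation has 2010103J01Rik, an antisense RNA, with Mir194-1 in an intron and Mir215 overlapping an exon. Mir194-2 is chr19:6264643-6264728 and Mir192 is chr19:6264844-6264932. These overlapped no other annotated gene. The nearest gene on the left was Atg2a, a gene of autophagosome formation, 2307 bases from Mir194-2, and the nearest on the right was the long non-coding RNA Gm14963, 3862 bases from Mir192.

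The means of the 7 arms over the 6 libraries ran from 0.276 RPM for miR-194-1-3p to 102836.3 RPM for miR-192-5p, and both abundant ones were 5p arms. Together the 7 rows held 12.0% to 14.5% of all miRNA reads in the J group (mean 12.9% ± 1.44, SD, n = 3) and 9.95% to 11.7% in the M group (10.7% ± 0.925). miR-192-5p made up 87.4% to 88.2% of these reads in the J group and 86.5% to 87.3% in the M group. By the mean over the 6 libraries it was number 3 in the whole table, miR-194-5p was number 12, miR-194-2-3p was number 131, miR-192-3p was number 153 and miR-215-5p was number 187. In every library the order was miR-192-5p, miR-194-5p, miR-194-2-3p, miR-192-3p and miR-215-5p. The order is one of reads, and how well each sequence is captured by the library preparation was not measured.

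**Figure D1:**
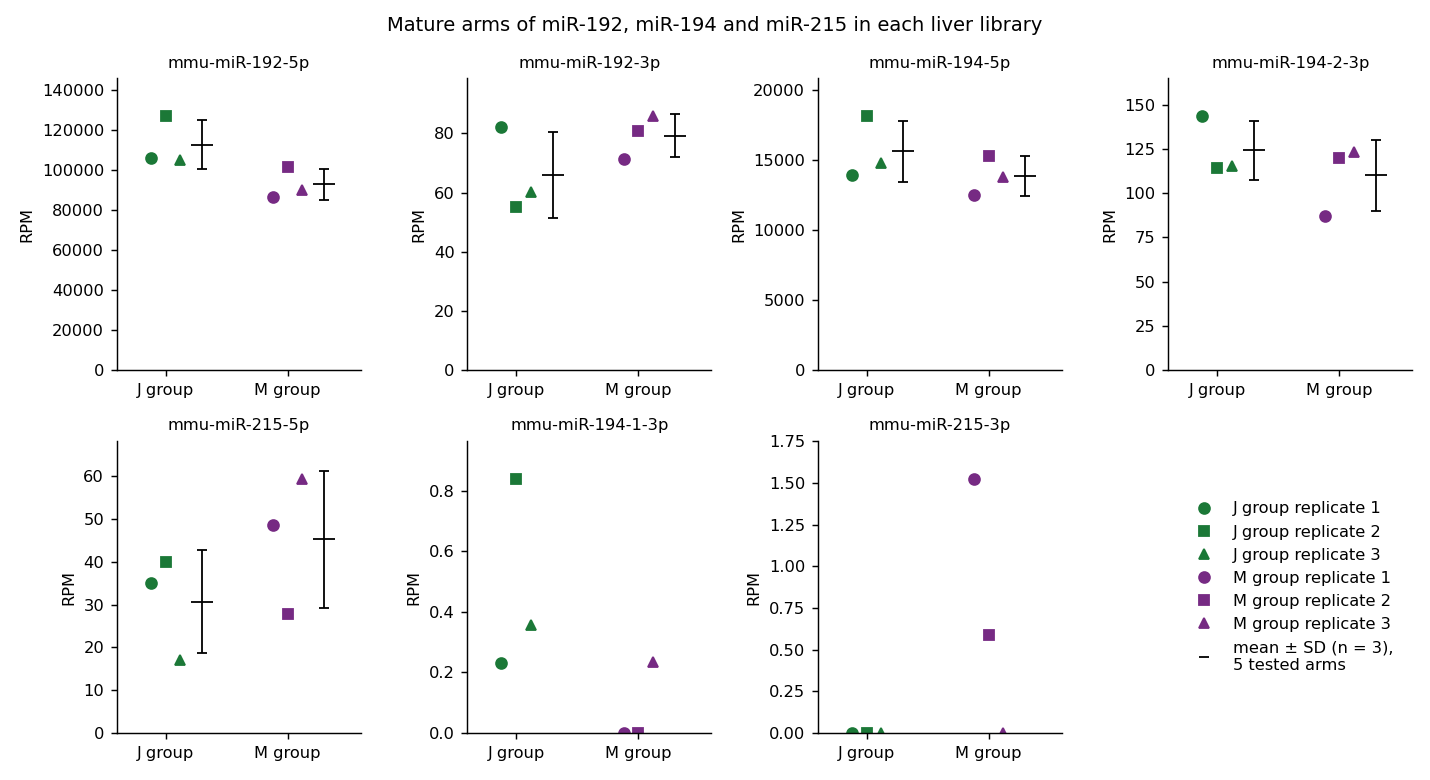
RPM of each of the 7 mature arms (vertical axes, linear and from 0, each panel with its own scale) in the 3 libraries of the J group (green) and the 3 of the M group (purple), where the marker shape is the replicate number and the black bar is the mean ± SD of the 5 tested arms. miR-192-5p is the arm whose 3 J libraries all lie above the 3 M libraries, and the groups overlap in the other 6.

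miR-192-5p was the most abundant member and was somewhat higher in the J group. In the order of the replicates, the J libraries had 106232, 126904.7 and 105064 RPM. The M libraries had 86805.9, 101805.9 and 90205.4 RPM. The 3 J libraries all lay above the 3 M libraries, and the lowest J library was close to the highest M library. The J mean of 112733.5 ± 12286.5 RPM was 1.21 times the M mean of 92939.1 ± 7864.8 RPM (SD, n = 3). With 227983 to 458299 reads per library, counting error was small against the spread between mice.

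The log2 fold change of miR-192-5p, J group minus M group on log2(RPM + 1), was 0.28 with a standard error of 0.12 and a 95% interval of -0.0035 to 0.56 (limma, unadjusted p = 0.0523, Benjamini-Hochberg adjusted p = 0.71 over 548 miRNAs). It missed both thresholds of the study, which ask for a log2 fold change of more than 0.3 in size with an unadjusted p below 0.05. Of the 548 miRNAs tested, 29 or 5.29% passed these thresholds, 8 or 1.46% as higher in the J group and 21 or 3.83% as lower. An adjusted p under 0.05 was reached by 0%. The smallest adjusted p was 0.42, and 29 miRNAs had an unadjusted p under 0.05. edgeR gave 0 and DESeq2 2 miRNAs with an adjusted p under 0.05. Every J library above every M library was seen in 23 of the 548, or 4.2%, and groups that did not overlap in either direction in 74, or 13.5%. By the size of its p, miR-192-5p was number 33.

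The call for miR-192-5p changed with the scaling and with 1 library. With libraries scaled by the median of ratios the log2 fold change was 0.38 (limma, unadjusted p = 0.0329, adjusted p = 0.728), and without M group replicate 2 it was 0.34 (unadjusted p = 0.0392, adjusted p = 0.588), both past the thresholds. Without J group replicate 2, the highest library, it was 0.19 (unadjusted p = 0.143). Without M group replicate 1 it was 0.23 (unadjusted p = 0.204), and with quantile normalization 0.24 (limma, unadjusted p = 0.139).

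miR-194-5p was the other abundant member. It had 13933.7, 18088.2 and 14796.9 RPM in the J libraries, in the same order, against 12470.1, 15303.4 and 13766.7 RPM in the M libraries. The groups overlapped, with M group replicate 2 above all J libraries but replicate 2. The means were 15606.3 ± 2192.3 RPM for J and 13846.8 ± 1418.3 RPM for M, and the log2 fold change was 0.17 with a standard error of 0.15 (95% interval -0.19 to 0.53, limma, unadjusted p = 0.305, adjusted p = 0.725). Without J group replicate 2 the log2 fold change was 0.06, and without M group replicate 1 it was 0.10. A difference between the groups was not detectable with these 6 mice, and the interval allows one in either direction.

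The 3p arms had few reads. miR-194-2-3p, which comes from the chromosome 19 copy of miR-194 alone, had 143.3, 114.2 and 115.1 RPM in the J libraries against 87.2, 119.6 and 123.1 RPM in the M libraries. The groups overlapped, with the highest library in the J group and the lowest in the M group. The log2 fold change was 0.18 with a standard error of 0.24 (95% interval -0.38 to 0.75, limma, adjusted p = 0.81), and 0.02 without M group replicate 1.

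miR-192-3p had 82.3, 55.3 and 60.2 RPM in the J libraries against 71.2, 80.6 and 85.7 RPM in the M libraries. J group replicate 1 lay among the M libraries, and the other J libraries lay under all of them. Its log2 fold change was -0.28 with a standard error of 0.25 (95% interval -0.86 to 0.31, limma, adjusted p = 0.723). It was -0.45 without J group replicate 1 and -0.16 without J group replicate 2. These values rest on 169 to 368 reads per library.

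The chromosome 1 locus gave few reads of its own. miR-215-5p, which shares its seed with miR-192-5p, had 35.0, 39.9 and 17.1 RPM in the J libraries against 48.7, 27.9 and 59.4 RPM in the M libraries. The groups overlapped, with the lowest library in the J group and the highest in the M group. The log2 fold change was -0.57 with a standard error of 0.42 (95% interval -1.56 to 0.42, limma, adjusted p = 0.71), and -0.21 without J group replicate 3, which had 48 reads. The other arms of this locus were at or near the limit of 3 reads. miR-194-1-3p had 1, 3 and 1 reads in the J group and 0, 0 and 1 in the M group, and miR-215-3p had 0 reads in each J library and 4, 2 and 0 in the M group. Neither passed the filter on low values, and no fold change was taken from them. So 5 of the 7 members were tested, 0 of the 5 passed the thresholds, and 1 of the 5 had groups that did not overlap, against 5.29% and 13.5% of all 548 miRNAs.

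**Figure D2:**
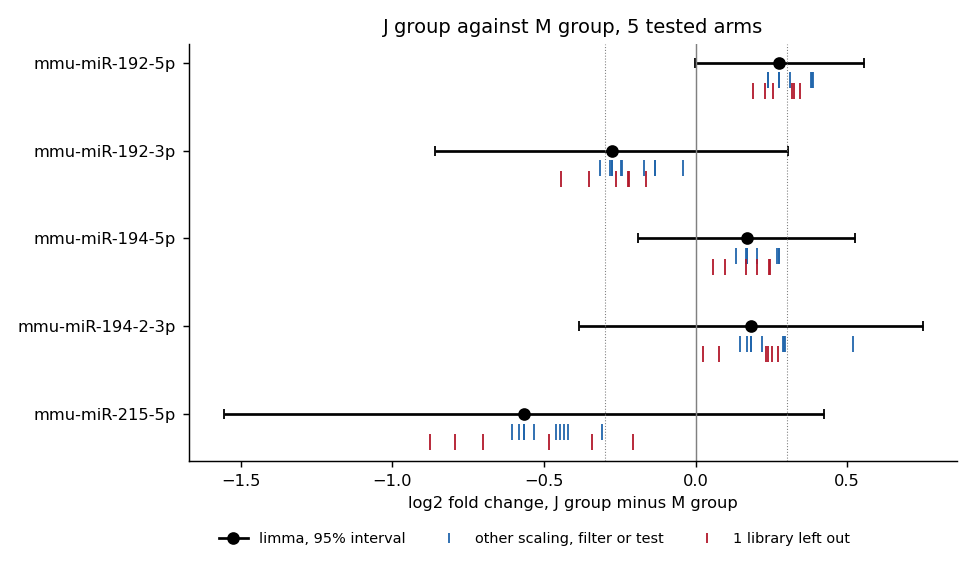
Log2 fold change, J group minus M group (horizontal axis), of the 5 tested arms by limma (black points, with 95% intervals), with the value under each other scaling, filter or test (blue ticks) and with 1 library left out (red ticks). Dotted lines mark the threshold of 0.3 in both directions. All 5 intervals cross 0, and that of miR-192-5p, from -0.0035 to 0.56, only just does so.

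RPM is a share of all miRNA reads, so a change in an abundant miRNA moves the values of all others. The 548 miRNAs had a median log2 fold change of -0.13, which median-of-ratios scaling moved to -0.04 and quantile normalization to 0.08. The split of the miRNAs past the thresholds moved with it, from 8 higher and 21 lower to 17 higher and 13 lower with median-of-ratios scaling and 20 higher and 11 lower with quantile normalization. The signs of the 5 tested members held in each of the 18 alternatives, within 0.19 to 0.39 for miR-192-5p, 0.06 to 0.28 for miR-194-5p, 0.02 to 0.52 for miR-194-2-3p, -0.45 to -0.04 for miR-192-3p and -0.87 to -0.21 for miR-215-5p.

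Reads of the arms that belong to 1 locus alone were set side by side. They are of unlike arms, whose capture was not measured, so they do not give the output of each locus. Over all 6 libraries, miR-194-1-3p made up 6 of the 2522 reads of both miR-194 3p arms, or 0.238% (95% Wilson interval 0.109% to 0.518%), and miR-194-2-3p made up the rest. The name of the miR-194-1-3p row ends in a base range written backward (19 to 5), as in 42 of the 619 mouse rows with a range, and its meaning is not given in the sources used here. The arms of a hairpin pair with each other, so the reverse complement of those 15 bases matches miR-194-5p by construction, with 1 mismatch. Whether the 6 reads are of miR-194-1-3p was not tested. Without miR-194-5p, the chromosome 1 rows held 832 of the 2175280 reads of both loci, or 0.0382% (0.0357% to 0.0409%). Here 2170380 of the reads were miR-192-5p and 820 were miR-215-5p. That share was 0.0166% to 0.0331% in the J group and 0.0279% to 0.0659% in the M group, and the groups overlapped. Of the reads with the seed common to miR-192-5p and miR-215-5p, miR-215-5p had 0.0163% to 0.0329% in the J group and 0.0274% to 0.0658% in the M group. In all 6 livers the reads assigned to 1 locus alone were almost entirely of chromosome 19. How far the ratio of the miR-194 3p arms carries over to the source of miR-194-5p was not tested. Intervals cover counting error only.

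The 5p reads were far above the 3p reads for miR-192, for miR-215 and for miR-194 with both loci summed, since the 5p reads of the miR-194 hairpins cannot be divided. The 3p arm was 0.0774%, 0.0435% and 0.0573% of both miR-192 arms in the J libraries against 0.0820%, 0.0791% and 0.0949% in the M libraries. All J libraries lay under all M libraries. The Wilson interval of J group replicate 1, 0.0698% to 0.0859%, nevertheless overlapped that of M group replicate 2, 0.0703% to 0.0890%. For miR-194, with the 3p arms of both loci summed, the share was 0.632% to 1.02% in the J group and 0.694% to 0.888% in the M group, with overlap. For miR-215 the 3p arm was not seen in the J group and was up to 3.03% in the M group, on at most 4 reads.

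**Figure D3:**
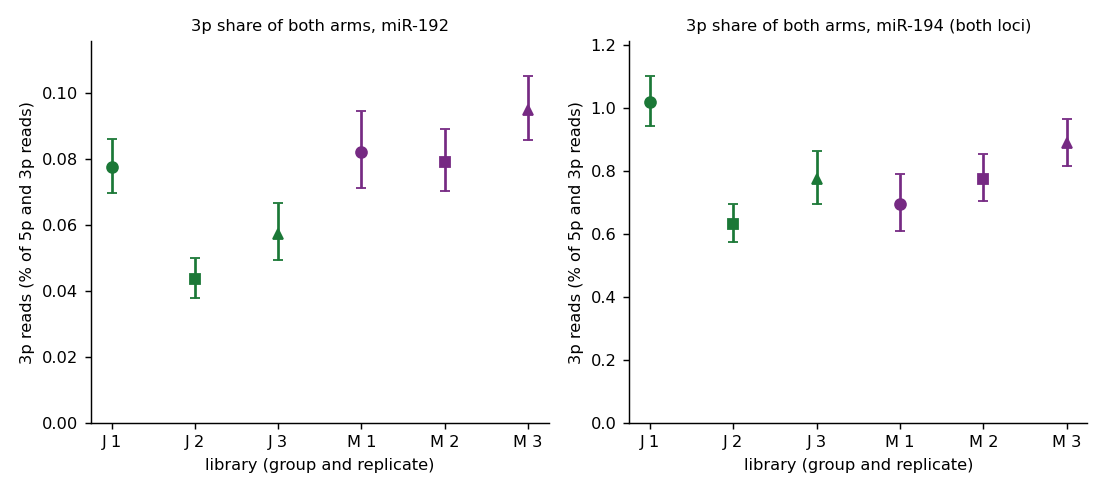
Reads of the 3p arm as a percent of the reads of both arms (vertical axes, from 0) for miR-192 (left) and miR-194 (right) in each library, J group in green and M group in purple, with 95% Wilson intervals for counting error. For miR-192 the J libraries are at 0.0435% to 0.0774% and the M libraries at 0.0791% to 0.0949%, and for miR-194 the groups overlap.

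A ratio of members within a library does not change when all values of the library are multiplied by 1 factor. Quantile normalization, which also reshapes the values, can change it. With it the log2 fold changes were 0.24 for miR-192-5p and -0.04 for miR-192-3p, against 0.28 and -0.28 on RPM. Those of miR-194-5p and miR-194-2-3p were 0.17 and 0.52, against 0.17 and 0.18 on RPM. miR-192-5p was 1291, 2296 and 1744 times miR-192-3p in the J libraries against 1219, 1263 and 1053 times in the M libraries. On the log2 scale the mean was 10.73 ± 0.41 in the J group and 10.18 ± 0.14 in the M group (SD, n = 3), a difference of 0.55 (two-sided exact permutation test, p = 0.1, the smallest possible with 3 libraries against 3, adjusted p = 0.2 over 4 ratios). The groups did not overlap, and J group replicate 1 was close to the M libraries. Without J group replicate 2 the difference was 0.35, and without J group replicate 1 it was 0.76.

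The same ratio was taken, after the values were seen, for the 86 pairs of a 5p and a 3p arm with at least 10 reads of both in every library. Of these, 73 were paired by their RefSeq hairpin and 13 by their names alone, and some pairs share an arm. In 13 of the 86, or 15.1%, the groups did not overlap. The median difference was -0.03, and 14 pairs differed by more than miR-192 in either direction. In a limma fit over these 86 ratios, 11.6% had an unadjusted p under 0.05 and 0% an adjusted p under 0.05. There the difference of miR-192 had a standard error of 0.25 (unadjusted p = 0.0456, adjusted p = 0.403).

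miR-194-5p was 97.3, 158 and 129 times miR-194-2-3p in the J libraries against 143, 128 and 112 times in the M libraries. These overlapped, and the log2 difference was -0.01 (exact permutation p = 1). miR-192-5p was 7.62, 7.02 and 7.10 times miR-194-5p in the J libraries against 6.96, 6.65 and 6.55 times in the M libraries. Here every J library was above every M library. The log2 mean was 2.86 ± 0.06 against 2.75 ± 0.05, a difference of 0.11 (exact permutation p = 0.1, adjusted p = 0.2), and 0.07 without J group replicate 1. The ratio of miR-192-5p to miR-215-5p, the arms with a common seed, ran from 3035 to 6140 in the J group and from 1520 to 3655 in the M group, with overlap (log2 difference 0.84, exact permutation p = 0.3, adjusted p = 0.4). That difference was 0.53 without J group replicate 3 and 1.22 without M group replicate 2.

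miR-192-5p and miR-194-5p had the highest Pearson correlation over the 6 libraries among the 5 pairs of members compared, while the rare arms of chromosome 19 had the same Spearman value. Pearson's r of their log2 values was 0.92 (exact permutation p = 0.0167, adjusted p = 0.0833 over 5 pairs) and Spearman's rho was 0.77 (exact permutation p = 0.103, adjusted p = 0.257). J group replicate 2 was highest and M group replicate 1 lowest in both. Without these 2 libraries, which are the ends of the relation, r was 0.445 over the other 4. Leaving out the ends narrows the range and tends to lower r by itself. How far the value over all 6 rests on them cannot be read from this. With median-of-ratios scaling r was 0.959 (exact permutation p = 0.00278, adjusted p = 0.0139), and with RPM taken over all other miRNAs it was 0.937 (exact permutation p = 0.00972, adjusted p = 0.0486). Of the deviations from the group means, r was 0.963, and a value within a single group of 3 libraries was not computed. Both are shares of the same total.

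**Figure D4:**
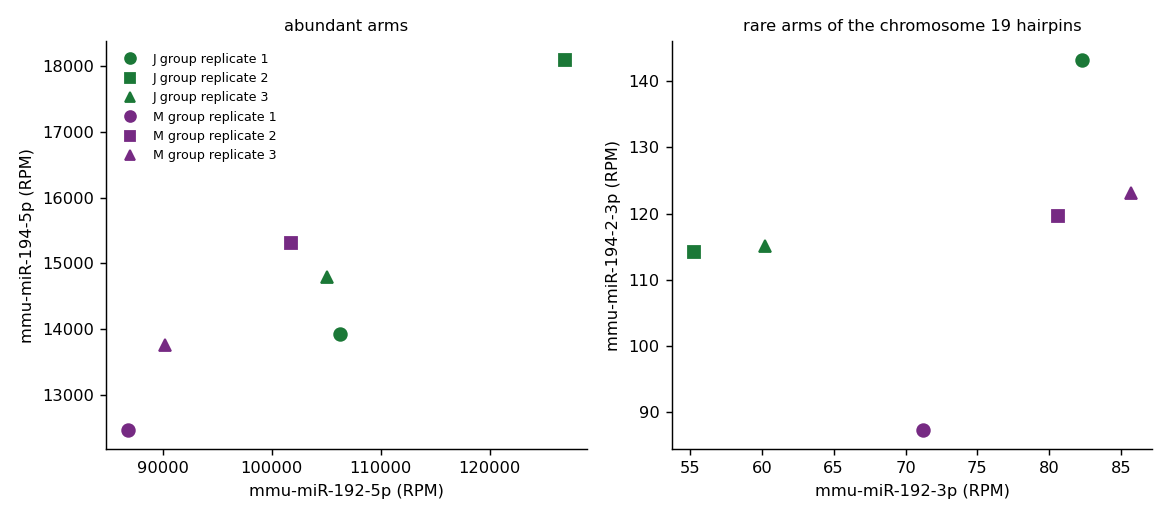
RPM of miR-194-5p against miR-192-5p (left) and of miR-194-2-3p against miR-192-3p (right), 1 point per library, J group in green and M group in purple with the replicate number as the marker shape. The axes do not start at 0. On the left, J group replicate 2 (126904.7 and 18088.2 RPM) and M group replicate 1 (86805.9 and 12470.1 RPM) are the ends of the relation.

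The 5p and 3p arms of the same miRNA gave correlations that moved with the scaling. For miR-192-5p with miR-192-3p, r was -0.635 and rho -0.429 (exact permutation p = 0.169 and 0.419, adjusted p = 0.424 and 0.524), and r was -0.50 without J group replicate 2 and M group replicate 1. With median-of-ratios scaling it was -0.0676. For miR-194-5p with miR-194-2-3p, r was 0.291 and rho -0.0286 (exact permutation p = 0.553 and 1, adjusted p = 0.553 and 1), and r was -0.606 without the same libraries and 0.632 with median-of-ratios scaling. The rare arms of the chromosome 19 hairpins gave r of 0.349 and rho of 0.771 (exact permutation p = 0.51 and 0.103, adjusted p = 0.553 and 0.257), and r was 0.873 without J group replicates 2 and 3 and 0.595 with median-of-ratios scaling. miR-192-5p with miR-215-5p, across the loci, gave r of -0.374 and rho of -0.429 (exact permutation p = 0.468 and 0.419, adjusted p = 0.553 and 0.524), and r was -0.789 without J group replicate 2 and M group replicate 1. On RPM, 0 of the 5 pairs reached an adjusted p under 0.05, and with median-of-ratios scaling 1 did, as it did with RPM taken over all other miRNAs, in both cases miR-192-5p with miR-194-5p. Of the deviations from the group means, r was 0.83 for the rare arms of chromosome 19 and 0.03 for miR-192-5p with miR-215-5p. It was 0.09 for miR-194-5p with miR-194-2-3p and -0.34 for miR-192-5p with miR-192-3p. Relations with the nearly unread arms were not computed.

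Among 269 mouse miRNAs with a mean of at least 10 RPM, the highest r with miR-192-5p over the 6 libraries was 0.958, of mmu-miR-30c-1-3p, followed by mmu-miR-193a-5p (0.838), mmu-miR-331-3p (0.827), mmu-miR-139-5p (0.823) and mmu-miR-30c-5p (0.818). miR-194-5p would stand at number 2 in that order, after mmu-miR-30c-1-3p alone. With miR-194-5p the highest were mmu-miR-30c-1-3p (0.961), mmu-miR-126b-3p (0.931), mmu-miR-30d-5p (0.901), mmu-miR-193a-5p (0.896) and mmu-miR-126b-5p (0.895), and miR-192-5p would be number 3. An r of at least 0.7 was reached by 7.81% of the 269 with miR-192-5p and by 10.8% with miR-194-5p. These are descriptions over 6 libraries that share their totals.

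The other miRNAs linked to hepatocytes had log2 fold changes of both signs. Of 6 arms listed as hepatocyte miRNAs, 6 were tested and 0 passed the thresholds, against 5.29% of all 548 miRNAs. Their median log2 fold change was -0.13, the same as over all miRNAs. mmu-miR-122-5p, the dominant miRNA of hepatocytes, was at 208683.4 to 232871.5 RPM in the J group and 233362.2 to 262490.1 RPM in the M group (log2 fold change -0.12, limma, adjusted p = 0.71), with every M library above every J library. mmu-miR-148a-3p had a log2 fold change of -0.32 (unadjusted p = 0.108, adjusted p = 0.71) and mmu-miR-802-5p, a miRNA of liver linked to glucose metabolism, -0.15 (adjusted p = 0.882). mmu-miR-148a-5p was at 0.18, mmu-miR-802-3p at -0.36 and mmu-miR-122-3p at -0.00.

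Of 8 arms listed as responsive to p53, 5 were in the table under these names, 4 were tested, 0 were higher and 2 were lower in the J group past the thresholds, with a median log2 fold change of -0.46. Over all 548 miRNAs, 1.46% were higher and 3.83% lower past the thresholds, and the median was -0.13. Both were arms of miR-145a, a miRNA of smooth muscle and other stromal cells, at -0.60 for mmu-miR-145a-3p and -0.46 for mmu-miR-145a-5p (limma, adjusted p = 0.643 and 0.71). The study lists both arms of miR-145a as lower on these same samples, so their direction is not independent evidence. mmu-miR-145a-5p is in the stromal list as well. mmu-miR-34a-5p, the best known target of p53 among miRNAs, was at -0.47 (adjusted p = 0.71) with overlapping groups, and mmu-miR-34c-5p at 0.19 (adjusted p = 0.885).

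The levels of miRNAs of other cell types differed between libraries. M group replicate 1, the library that stood apart, was the lowest of the 6 for miR-192-5p, miR-194-5p and miR-194-2-3p. It was not the lowest for miR-192-3p (71.2 RPM) or miR-215-5p (48.7 RPM). Its mmu-miR-122-5p, the hepatocyte miRNA, was at 233694.8 RPM, within the range of the other libraries. The summed level of 5 bile duct miRNAs in M group replicate 1 was 4298 RPM, against 950 to 2379 RPM in the others. Most of this sum was mmu-miR-200a-3p (1921 RPM) and mmu-miR-200b-3p (2163 RPM). There mmu-miR-429-3p (77.7 RPM) and mmu-miR-200c-3p (32.4 RPM) were also above the other libraries, while mmu-miR-141-3p (103.2 RPM) was within their range. Of 4 stromal miRNAs tested, 3 were lower in the J group past the thresholds, against 3.83% of all 548 miRNAs. These were mmu-miR-199a-5p, mmu-miR-214-3p and mmu-miR-145a-5p. The study lists all 3 as lower on these same samples, so their direction is not independent evidence. The summed level of the stromal miRNAs was 12582 to 16890 RPM in the J group and 16765 to 25242 RPM in the M group. Blood cell miRNAs were at 4286 to 6232 against 2534 to 9724 RPM and the endothelial miRNA at 4166 to 6718 against 4486 to 5579 RPM, while pancreas and muscle miRNAs were at most 25.8 RPM. The part of these cell types in the levels of miR-192 and miR-194 was not tested. Without M group replicate 1 the log2 fold change of miR-192-5p was 0.23 (limma, unadjusted p = 0.204, adjusted p = 0.886). In whole liver, fewer hepatocytes and less of a miRNA per hepatocyte cannot be told apart.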

How the data were processed

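Small RNA libraries were made from the livers of 3 J group and 3 M group mice, 1 library per mouse, with groups taken from the labels. The authors filtered the reads, matched unique reads to Rfam and miRBase and deposited the expression of each miRNA as RPM, its reads relative to the miRNA reads of that library, without pooling. The submitters' notes name the build mm9, the table gives no coordinates, and positions here are of GRCm38. All deposited RPM values (100%) were whole multiples of 1 read within 0.01 reads, so whole reads were recovered. Depth was 2626353 to 4314134 reads, and intervals and the limit of 3 reads cover counting error only.

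J and M were compared by limma 3.58.1 in R 4.3.3 (two-sided, variance trend) on log2(RPM + 1), over 548 miRNAs with a mean above 1 RPM in a group. The added 1 RPM understates changes of rare miRNAs. The p-values were adjusted over all 548 (Benjamini-Hochberg). Ratios and correlations between members used exact permutation tests and needed 10 reads of both arms in every library. Alternatives were other pseudocounts (0.1 and 10 RPM), filters and scalings, edgeR 4.0.16 and DESeq2 1.42.0 on recovered reads, a replicate block, and each library left out. The fits were tested on simulated data. Tables were read with Python 3.11.15, pandas 2.3.3 and scipy 1.17.1.

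The members and lists were chosen with earlier results of these data known. Named miRNAs were all members, the 5 miRNAs most correlated with miR-192-5p and with miR-194-5p (mean of at least 10 RPM, members left out), and the members of the lists.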

Additional observations from a re-analysis of the deposited data

How the results depend on the processing

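The count of miRNAs past the thresholds, 29, was 45 with edgeR and 45 without M group replicate 2, and ran from 21 to 45 with 1 library left out. miR-192-5p passed the thresholds with median-of-ratios scaling (0.38), with RPM taken over all other miRNAs (0.31), with edgeR (0.38) and without M group replicate 2 (0.34). In the other 14 of the 18 alternatives it did not pass. With 1 library left out, miR-192-5p ran from 0.19 to 0.34. Its adjusted p was 0.538 to 0.886 over the 18 alternatives. For the arm ratio of miR-192, whose difference of 0.55 is the same by construction, limma over all 86 arm pairs, chosen after seeing the data, gave an unadjusted p of 0.0456 and an adjusted p of 0.403. The ratio of miR-194-5p to miR-194-2-3p turned from -0.01 to 0.17 without J group replicate 1 and to 0.07 without M group replicate 1, and ran from -0.18 to 0.17. The causes were not tested. With a replicate block the count was 27 and miR-192-5p was at 0.28 (limma, unadjusted p = 0.0121, adjusted p = 0.723), under the fold threshold. Same-numbered libraries did not deviate together (r of 0.0453, 0.0584 and -0.00587). The labels do not say whether the numbers pair the mice, and these values do not settle it. With 3 mice per group, the exact tests of ratios between groups cannot go below p = 0.1, and arms with under 10 reads gave no ratio.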
